A study of Homo sapiens with 8 samples.

Results

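Expression of genes of the p53 pathway was examined in U2OS cells after CDK9 had been silenced. A list of 33 p53 regulators and target genes was taken, and the probe sets that the array annotation gives to a single gene of that list were read. Of these 33 genes, 32 were measured, each by 1 probe set, among 18417 genes measured in all, and FDXR was not analysed here. No measured value entered the choice of a probe set other than its mean over all arrays. U2OS is a human osteosarcoma cell line that carries wild-type p53, and both groups were cells of this line transfected with siRNA by the same reagent. The CDK9 siRNA group (4 arrays) received siRNA against CDK9 and the control siRNA group (4 arrays) a non-targeting siRNA, each at 10 nM, and cells were collected 72 h later. The design text describes the replicates as biological. The sources used here do not give the number of siRNA sequences used against CDK9. RNA came from whole cultures, so a lower level in every cell and a lower level in some of the cells cannot be told apart.

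The p53 protein is a transcription factor that is held low in unstressed cells by the ubiquitin ligase MDM2, itself a product of a p53 target gene, with help from its relative MDM4. When DNA damage or other stress frees p53, it binds a response element made of a pair of 10-base units and raises the transcription of genes for cell cycle arrest (CDKN1A, which encodes the inhibitor p21), DNA repair (DDB2, XPC), cell death (FAS, TNFRSF10B) and metabolism (TIGAR, SESN1, SESN2). CDK9 is the kinase subunit of P-TEFb, a complex that sends paused RNA polymerase II into productive elongation. How far each p53 target gene relies on it was not tested here.

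CDK9 mRNA checked the labels. Its probe set read 7.997, 9.030, 9.085 and 9.039 in the CDK9 siRNA arrays, against 9.805, 10.861, 10.894 and 10.857 in the control arrays. The arrays of the groups did not overlap, and the log2 difference (CDK9 siRNA minus control siRNA) was -1.82 ± 0.05 (SE, n = 4 in each group, adjusted p = 2.17e-07), which left 28.4% of the control signal (95% confidence interval 26.4 to 30.5%). An exact two-sided permutation test of this value gave p = 0.0286, the smallest that 4 arrays against 4 allow. Replicate 1 of both groups (set 1) was deposited on a lower scale, with array medians of 5.85 in CDK9 siRNA and 5.80 in control siRNA, than replicates 2 to 4 (set 2), whose medians lay between 6.99 and 7.04. Log2 levels are therefore compared within a set, and the fit carries the set as a block. The same CDK9 difference was seen in both sets, -1.81 in set 1 and -1.82 in set 2. Markers were read by level in the control arrays of set 2 and by their change. Of 8 osteoblast and mesenchymal markers measured, VIM averaged 12.32 and RUNX2 9.36, while ALPL and IBSP were dim (mean over all 8 arrays in the lowest 30% of genes, below 6.14). With CDK9 siRNA, RUNX2 (-0.60), COL1A1 (-0.51) and VIM (-0.19) fell and SPP1 rose (1.497). Of 6 epithelial markers, KRT18 averaged 12.67, CLDN3 7.58, CLDN4 7.07 and KRT19 6.83, and EPCAM and CDH1 were dim. EPCAM rose (0.32). Of 5 leukocyte markers, PTPRC was at 4.45 in CDK9 siRNA and 4.51 in control siRNA, 4 were dim, and CD68, the 1 above that limit, fell (-0.31). All 5 endothelial markers were dim, and TEK rose (0.30). With the replicate number as a block in limma, VIM, EPCAM and CD68 did not pass (adjusted p = 0.0808, 0.0841 and 0.0645). The part of these changes in the results below was not tested.

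The promoters were read for matches to the p53 response element near the starts of these genes, those that fell among them. Windows from 250 bases before to 50 bases after each annotated start were taken from RefSeq (build GRCh38.p14). They covered 27 of the 32 genes in 43 windows. GADD45A, PHLDA3, RRM2B, TNFRSF10B and TP53INP1 had no window. The p53 response element was searched as 2 adjoining 10-base units with up to 3 mismatches over its 20 bases, the central C and G of each unit being required. The element reads alike on both strands, so 1 scan covers both. It was found in 1.12% of all 35116 windows (1.37% of genes) and in 6 of the 27 p53 genes (22.2%), namely MDM2, FAS, DDB2, AEN, SESN1 and GDF15. A match describes these letters and does not show binding, and a window without a match says nothing about elements elsewhere in the gene. Capitals mark only matches to this search. A stretch that lacks a required C or G, or has bases between its units, is not marked. All sequences run 5′ to 3′ on the gene's strand, and positions are counted from the start, with -1 the base before it.

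The 5 genes that fell with CDK9 silencing are shown by the 250 bases before their start, in the order of their change. GDF15 is the member of these 5 with an element in its window, 29 to 48 bases after the start with 3 mismatches, which is given on a line of its own. The locations are chr2:24084835-24085084, minus strand for TP53I3, chr19:18385908-18386157, plus strand for GDF15, chr14:69611346-69611595, plus strand for SUSD6, chr1:44800127-44800376, plus strand for PLK3 and chr12:4320963-4321212, plus strand for TIGAR. The GDF15 element lies at chr19:18386186-18386205, plus strand.
TP53I3 promoter: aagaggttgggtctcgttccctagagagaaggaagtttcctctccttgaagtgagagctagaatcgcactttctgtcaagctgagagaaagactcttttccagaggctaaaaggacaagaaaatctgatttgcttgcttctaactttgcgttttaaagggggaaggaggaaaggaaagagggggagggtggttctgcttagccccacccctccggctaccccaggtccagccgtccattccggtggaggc
GDF15 promoter: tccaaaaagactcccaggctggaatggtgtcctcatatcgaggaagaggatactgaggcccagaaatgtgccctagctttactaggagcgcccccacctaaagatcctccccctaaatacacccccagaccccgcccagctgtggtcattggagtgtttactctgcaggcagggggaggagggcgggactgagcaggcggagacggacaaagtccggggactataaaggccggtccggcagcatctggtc
GDF15 element: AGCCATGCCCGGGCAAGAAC
SUSD6 promoter: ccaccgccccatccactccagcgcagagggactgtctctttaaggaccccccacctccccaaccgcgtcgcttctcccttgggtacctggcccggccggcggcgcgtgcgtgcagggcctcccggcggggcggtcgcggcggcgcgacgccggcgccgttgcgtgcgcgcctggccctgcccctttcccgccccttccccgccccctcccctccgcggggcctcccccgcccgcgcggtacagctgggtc
PLK3 promoter: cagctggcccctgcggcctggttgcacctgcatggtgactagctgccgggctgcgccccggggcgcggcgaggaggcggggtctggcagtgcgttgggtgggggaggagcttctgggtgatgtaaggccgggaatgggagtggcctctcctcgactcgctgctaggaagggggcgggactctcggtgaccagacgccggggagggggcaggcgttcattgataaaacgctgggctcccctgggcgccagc
TIGAR promoter: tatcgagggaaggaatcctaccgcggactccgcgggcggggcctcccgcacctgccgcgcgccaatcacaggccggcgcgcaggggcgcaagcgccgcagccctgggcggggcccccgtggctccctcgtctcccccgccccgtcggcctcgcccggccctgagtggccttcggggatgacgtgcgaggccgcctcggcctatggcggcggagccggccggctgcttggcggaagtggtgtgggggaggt

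The other 5 genes with an element are shown for comparison, as genes with the element that did not pass the test. MDM2 is shown at an internal start (chr12:68808767-68809016, plus strand, 1 of its 4 windows and 1 of 2 overlapping ones with the element), where it lies 94 to 75 bases before the start with 2 mismatches. The AEN element (chr15:88621090-88621339, plus strand) lies 34 to 15 bases before the start and also has 2 mismatches. For FAS (chr10:88991181-88991430, plus strand, 1 of 3 windows) it lies 122 to 103 bases before the start with 2 mismatches, and for SESN1 (chr6:109008989-109009238, minus strand, 1 of 3 windows) 49 to 30 bases before the start with 3. DDB2 (chr11:47214929-47214988, plus strand) has the element with 1 mismatch across the start, from -5 to 15.
MDM2 promoter: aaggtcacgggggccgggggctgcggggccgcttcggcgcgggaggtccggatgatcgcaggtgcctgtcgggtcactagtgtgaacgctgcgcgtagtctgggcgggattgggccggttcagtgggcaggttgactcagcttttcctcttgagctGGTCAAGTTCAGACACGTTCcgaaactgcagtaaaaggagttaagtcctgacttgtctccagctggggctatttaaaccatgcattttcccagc
AEN promoter: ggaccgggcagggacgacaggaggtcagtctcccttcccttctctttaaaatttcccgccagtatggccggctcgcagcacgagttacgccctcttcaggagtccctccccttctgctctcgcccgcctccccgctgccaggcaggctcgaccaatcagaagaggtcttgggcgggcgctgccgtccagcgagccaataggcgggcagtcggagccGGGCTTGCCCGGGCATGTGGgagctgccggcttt
FAS promoter: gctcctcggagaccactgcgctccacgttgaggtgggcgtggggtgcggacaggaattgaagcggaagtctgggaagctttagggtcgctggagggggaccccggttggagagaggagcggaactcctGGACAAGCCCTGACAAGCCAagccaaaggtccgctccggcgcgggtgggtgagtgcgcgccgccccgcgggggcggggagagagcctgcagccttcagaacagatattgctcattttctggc
SESN1 promoter: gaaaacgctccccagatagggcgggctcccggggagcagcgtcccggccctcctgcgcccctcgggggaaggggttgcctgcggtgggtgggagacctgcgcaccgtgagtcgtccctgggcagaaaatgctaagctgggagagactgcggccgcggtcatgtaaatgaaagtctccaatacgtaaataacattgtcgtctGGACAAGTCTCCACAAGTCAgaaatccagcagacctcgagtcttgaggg
DDB2 start: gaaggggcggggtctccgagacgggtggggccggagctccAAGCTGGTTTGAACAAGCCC

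Of the 32 p53 genes, 5 fell and 0 rose in cells given CDK9 siRNA (limma, p values adjusted by Benjamini-Hochberg across the 18417 genes, threshold 0.05). The genes that fell were TP53I3, GDF15, SUSD6, PLK3 and TIGAR. All of the falls were small: the signal left lay between 67.9% (TP53I3) and 84.0% (TIGAR) of the control. Over all genes 7.47% fell and 6.73% rose, 14.2% in all, against 15.6% and 0.00% of the p53 genes, so the share that changed was near the background. With the replicate number as a block, 4 fell and 0 rose, against 4.75% and 4.41% of all genes. Of the 32 genes, 22 had a difference below 0 (68.8%), against 50.5% of all genes, and 12 were lower in all 4 same-numbered pairs, against 17.6%. At an unadjusted p under 0.05, 11 of the 32 were lower and 3 higher (34.4% and 9.38%), against 14.7% and 13.3% of all genes. The median log2 difference was -0.09 over the p53 genes and -0.0016 over all genes. Log2 differences of the p53 genes ran between -0.56 and 0.19, their SD was 0.18, and the SD over all genes was 0.18 too. No estimate over both sets reached 1.5-fold in either direction, and 5 of the 32 reached 1.2-fold, against 2026 of all 18417 genes. In simulated data the fit recovered 26% of changes of 1.2-fold. The genes were chosen with earlier results of these arrays known, so these counts describe the list and are not a test of it.

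**Figure D1:**
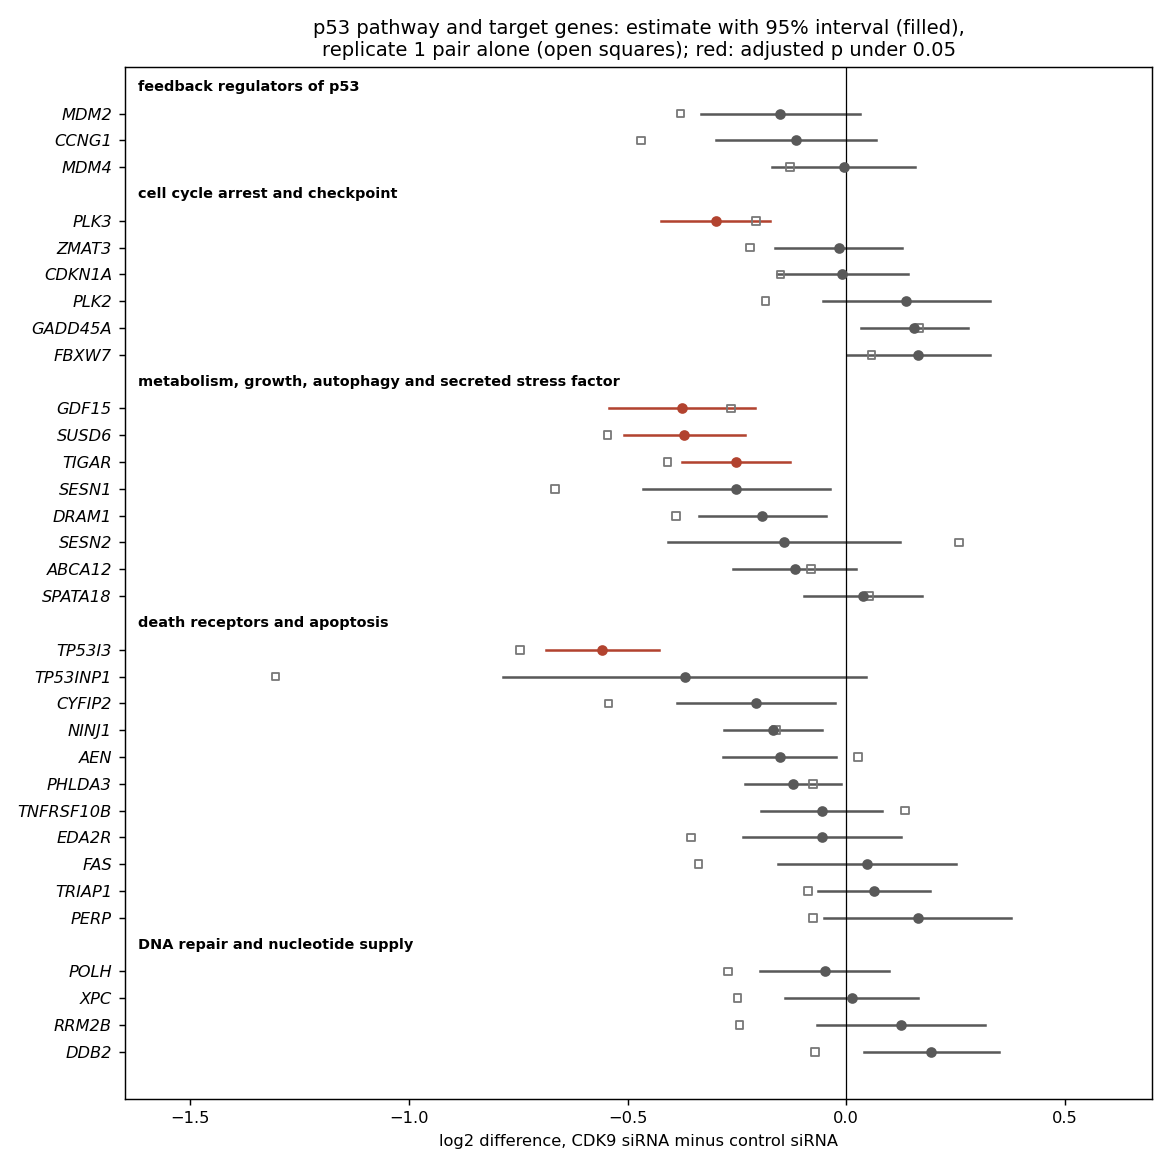
Log2 difference (CDK9 siRNA minus control siRNA) of the 32 p53 genes, grouped by role, with the 95% confidence interval of the fit over all 8 arrays (filled circles and bars, red where the adjusted p was under 0.05) and the difference in the replicate 1 pair alone (open squares). The 5 red genes lie between -0.56 and -0.25, and the open square of TP53INP1 lies farthest left at -1.31.

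TP53I3 had the largest fall. It encodes a quinone oxidoreductase-like enzyme linked to oxidative stress in p53-dependent apoptosis. Its probe set read 7.92, 9.94, 9.92 and 9.93 in the CDK9 siRNA arrays, against 8.66, 10.40, 10.44 and 10.44 in the control arrays. In set 2 every CDK9 siRNA array lay below every control array, and in set 1 the single CDK9 siRNA array lay below its control. The log2 difference was -0.56 ± 0.06 (SE, n = 4 in each group, adjusted p = 0.000501), leaving 67.9% of the control signal (95% confidence interval 62.1 to 74.3%), with -0.75 in set 1 and -0.49 in set 2. It ranked 159 from the largest fall among the 18417 genes. TP53I3 and the other genes that fell were picked by the test on these same arrays. Separate groups and a like sign in set 1 therefore add no support of their own. Of all genes, 19.5% lay wholly below the controls in set 2 and 49.4% were lower in set 1, as were 81.2% of the p53 genes in set 1.

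GDF15, a secreted stress cytokine of the TGF-beta family, read 5.67, 7.11, 7.01 and 6.91 in the CDK9 siRNA arrays, against 5.93, 7.57, 7.30 and 7.40 in the control arrays. Its 3 CDK9 siRNA arrays of set 2 all lay below the 3 controls, and its single array of set 1 lay below its control. It fell by 0.38 on the log2 scale, -0.38 ± 0.07 (SE, n = 4 in each group, adjusted p = 0.00994), to 77.1% of the control signal (95% confidence interval 68.7 to 86.5%). SUSD6, a membrane protein with a sushi domain and a p53 target, read 6.22, 7.59, 7.47 and 7.59 in the CDK9 siRNA arrays, against 6.77, 7.89, 7.89 and 7.81 in the control arrays. Its groups were separate in set 2 as well, with a log2 difference of -0.37 ± 0.06 (SE, n = 4 in each group, adjusted p = 0.00474), or 77.3% of the control signal (95% confidence interval 70.3 to 85.1%). PLK3, a polo-like kinase of the stress response, read 7.24, 8.38, 8.22 and 8.25 in the CDK9 siRNA arrays, against 7.44, 8.59, 8.62 and 8.61 in the control arrays. The 3 CDK9 siRNA arrays of set 2 lay below the 3 controls, as did the array of set 1, and the log2 difference was -0.30 ± 0.06 (SE, n = 4 in each group, adjusted p = 0.00752).

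TIGAR, an enzyme that lowers the level of a glycolysis activator and so diverts glucose to the pentose phosphate pathway, read 8.76, 9.29, 9.28 and 9.24 in the CDK9 siRNA arrays, against 9.17, 9.44, 9.50 and 9.46 in the control arrays. In set 2 the groups were separate, and in set 1 the single CDK9 siRNA array lay below its control. The log2 difference was -0.25 ± 0.05 (SE, n = 4 in each group, adjusted p = 0.0156). Its call was the least firm of the 5. With the replicate number as a block its adjusted p was 0.0517, and without control replicate 3 it was 0.0541. The plot of values by array shows these 5 genes beside 3 that did not pass.

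**Figure D2:**
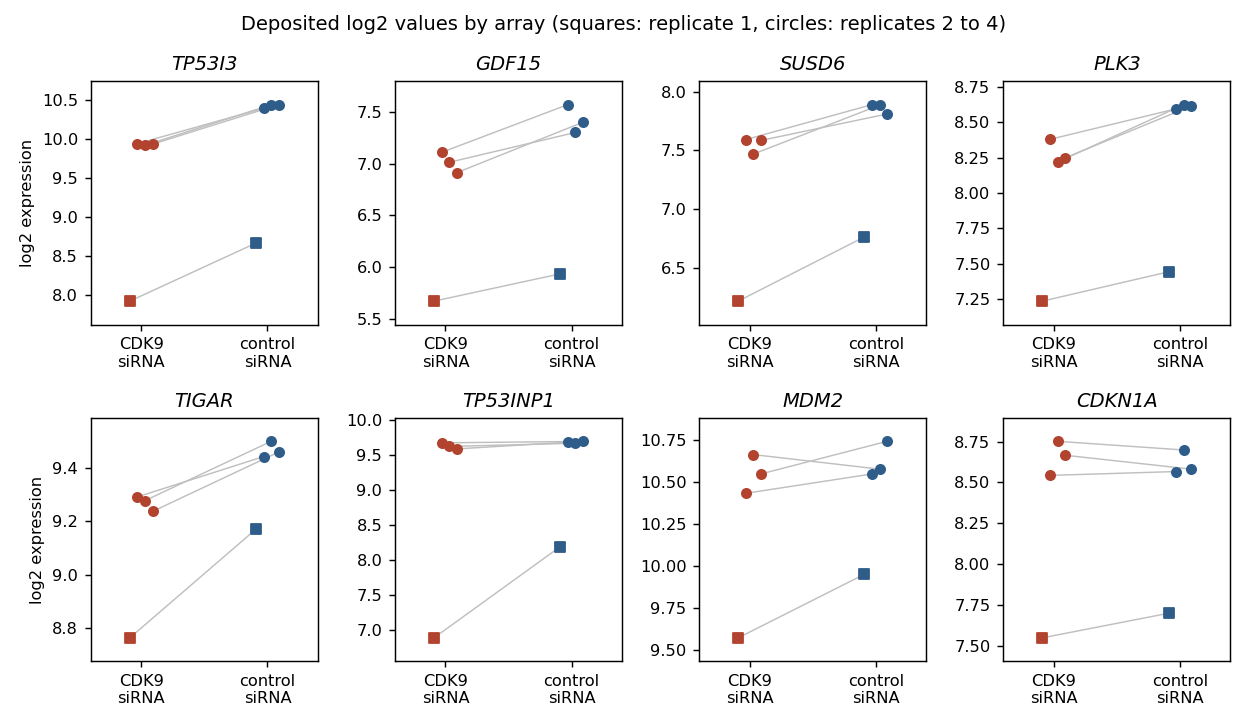
Deposited log2 values of the 5 genes that fell (TP53I3, GDF15, SUSD6, PLK3 and TIGAR) and of TP53INP1, MDM2 and CDKN1A, which did not pass, with CDK9 siRNA on the left and control siRNA on the right of each panel. Each point is 1 array (squares for replicate 1, circles for replicates 2 to 4), and grey lines join arrays of the same number. For TP53INP1 the circles lie between 9.59 and 9.70 in both groups while the squares stand at 6.88 in CDK9 siRNA and 8.19 in control siRNA.

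The 3 genes listed as feedback regulators of p53, MDM2, MDM4 and CCNG1, did not pass. MDM2, the ubiquitin ligase that is both inhibitor and target of p53, read 9.57, 10.44, 10.67 and 10.55 in the CDK9 siRNA arrays, against 9.95, 10.55, 10.58 and 10.75 in the control arrays. Its groups overlapped in set 2, and the log2 difference was -0.15 ± 0.08 (SE, n = 4 in each group, adjusted p = 0.265), with a 95% interval of -0.33 to 0.03. MDM4, which binds p53 and blocks its activation domain, differed by -0.01 (interval -0.17 to 0.16, adjusted p = 0.973). CCNG1, a cyclin that brings a phosphatase to MDM2, differed by -0.12 (adjusted p = 0.411). All 3 were lower in the set 1 pair, at -0.38, -0.13 and -0.47, and lay at -0.07, 0.04 and 0.00 in set 2.

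Among the 6 genes of cell cycle arrest and checkpoint control, PLK3 was the gene that fell. CDKN1A, whose product p21 inhibits cyclin-dependent kinases, read 7.55, 8.54, 8.75 and 8.67 in the CDK9 siRNA arrays, against 7.70, 8.57, 8.70 and 8.58 in the control arrays. Its values overlapped between groups in set 2, and the difference of -0.01 had a 95% interval of -0.16 to 0.14, which leaves room for 89.6 to 110.2% of the control signal. ZMAT3, a zinc finger protein that binds RNA, differed by -0.02 (adjusted p = 0.9). GADD45A, a stress-induced protein that binds proliferating cell nuclear antigen, read 9.57, 10.60, 10.46 and 10.60 in the CDK9 siRNA arrays, against 9.40, 10.34, 10.43 and 10.45 in the control arrays. It was higher in all 4 pairs and its groups were separate in set 2, but its difference of 0.16 did not pass (adjusted p = 0.0939), except with the intensity trend and robust variances (0.0241). FBXW7, the substrate receptor of a ubiquitin ligase for cyclin E and MYC, was likewise higher in all 4 pairs, as were 15.4% of all genes (0.16, adjusted p = 0.175), and its groups overlapped in set 2.

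PLK2, the other polo-like kinase on the list, read 9.807, 10.856, 11.001 and 11.081 in the CDK9 siRNA arrays, against 9.992, 10.697, 10.772 and 10.734 in the control arrays. In set 2 its CDK9 siRNA arrays all lay above the controls, by 0.24 (adjusted p = 0.0417 in set 2 alone), while in set 1 it was lower by 0.18. With both sets it did not pass (0.14, adjusted p = 0.341). PLK3 lay at -0.21 in set 1 and -0.33 in set 2. Whether PLK2 and PLK3 differ from each other in their response was not tested.

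None of the 4 genes of DNA repair and nucleotide supply passed with both sets. DDB2, which recognises ultraviolet damage in chromatin, read 8.60, 9.77, 9.77 and 9.76 in the CDK9 siRNA arrays, against 8.68, 9.44, 9.52 and 9.48 in the control arrays. In set 2 the groups were separate, with CDK9 siRNA higher by 0.28 (adjusted p = 0.0065 in set 2 alone), and in set 1 the difference was -0.07. RRM2B, a ribonucleotide reductase subunit that supplies nucleotides for repair, read 9.30, 10.74, 10.84 and 10.79 in the CDK9 siRNA arrays, against 9.55, 10.55, 10.57 and 10.50 in the control arrays. It had the same pattern, -0.24 in set 1 and 0.25 in set 2 (adjusted p = 0.0143 in set 2 alone). With both sets DDB2 differed by 0.19 (adjusted p = 0.0946) and RRM2B by 0.13 (adjusted p = 0.391). DDB2 passed with the intensity trend and robust variances (0.0342). XPC, the damage sensor of nucleotide excision repair, differed by 0.01, with -0.25 in set 1 and 0.10 in set 2, and POLH, a polymerase that copies past ultraviolet lesions, by -0.05.

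Of 11 genes of death receptors and apoptosis, TP53I3 fell and 10 did not pass. FAS, the receptor of the death ligand FASLG, read 7.06, 8.64, 8.78 and 8.66 in the CDK9 siRNA arrays, against 7.40, 8.52, 8.47 and 8.56 in the control arrays. Set 1 was lower by 0.34 and set 2 higher by 0.18, and the difference over both was 0.05 (adjusted p = 0.787). TNFRSF10B, a receptor of the death ligand TRAIL, differed by -0.06 (adjusted p = 0.61), and EDA2R, a receptor of ectodysplasin, by -0.06 (adjusted p = 0.715). NINJ1, which ruptures the plasma membrane of dying cells, was lower in all 4 pairs with separate groups in set 2. Its difference of -0.17 lay just outside the threshold (adjusted p = 0.054), and it passed when dim genes were left out (0.0265) or with the intensity trend and robust variances (0.0270). AEN, an apoptosis-enhancing nuclease, read 8.74, 9.27, 9.30 and 9.33 in the CDK9 siRNA arrays, against 8.71, 9.54, 9.49 and 9.51 in the control arrays. It was lower by 0.21 in set 2 (adjusted p = 0.0186 in set 2 alone), level in set 1 (0.03), and did not pass over both (-0.15, adjusted p = 0.115).

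The remaining 5 apoptosis genes varied in the same narrow range, apart from TP53INP1. PHLDA3, an inhibitor of the kinase AKT, differed by -0.12 and CYFIP2, a member of the WAVE actin regulatory complex, by -0.21. Both were lower in all 4 pairs. TRIAP1, a small mitochondrial protein that counters apoptosis, differed by 0.06, and PERP, a membrane protein of desmosomes, by 0.16. TP53INP1, a stress protein of autophagy and apoptosis, read 6.88, 9.67, 9.62 and 9.59 in the CDK9 siRNA arrays, against 8.19, 9.69, 9.67 and 9.70 in the control arrays. The single CDK9 siRNA array of set 1 lay 1.31 below its control, whereas those of set 2 lay 0.02, 0.05 and 0.11 below theirs. The difference between the sets was -1.25 (limma interaction, adjusted p = 0.00829), and over both sets the gene did not pass (-0.37, adjusted p = 0.231). Set 1 holds 1 array a group, so its spread is taken from the other arrays.

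Metabolism, growth, autophagy and secreted signals held 3 of the 5 falls, GDF15, SUSD6 and TIGAR, among 8 measured genes (37.5%, against 7.47% of all genes). Of the 8, 7 had a difference below 0 (87.5%, against 68.8% of the 32 p53 genes and 50.5% of all genes). Whether falls gather in this group was not tested. The sestrins restrain mTOR signalling. SESN1 read 6.97, 8.31, 8.36 and 8.39 in the CDK9 siRNA arrays, against 7.64, 8.49, 8.38 and 8.53 in the control arrays. It was lower in all 4 pairs, by 0.67 in set 1 and by 0.11 in set 2, where the groups overlapped, and it did not pass (-0.25, adjusted p = 0.117). SESN2 went opposite ways, at 0.26 in set 1 and -0.28 in set 2 (adjusted p = 0.495). DRAM1, a lysosomal membrane protein of autophagy, was lower in all 4 pairs without passing (-0.19, adjusted p = 0.0845). ABCA12, a lipid transporter of keratinocytes (-0.12), and SPATA18, a protein of mitochondrial quality control (0.04), were the 2 dim genes of the list and did not pass.

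The array sets differed in how the p53 genes lay. In set 1, 26 of the 32 genes (81.2%) were lower in CDK9 siRNA than in control siRNA, with a median log2 difference of -0.21, while 49.4% of all genes were lower there and their median was 0.00. In set 2, 16 of the 32 were lower, with a median of -0.03, against 51.6% and -0.01 over all genes. This shift was not particular to the 32 genes. Of the genes that act on p53, read below, 25 of 34 were lower in set 1 (median -0.14, and 0.01 in set 2). Of the genes that p53 represses, also below, 22 of 27 were (median -0.22, and 0.09 in set 2). Of other p53 targets, 27 of 53 were lower in set 1 (median -0.003, and -0.09 in set 2). Among the 12892 genes that were not dim, the medians were -0.02 in both sets. The medians of the p53 genes in the same-numbered pairs 2, 3 and 4 were -0.02, -0.06 and -0.03. Set 1 is 1 pair of cultures, so whether this difference belongs to the cultures or the arrays cannot be told apart. Differences in the 2 sets had the same sign for 16 of the 32 p53 genes and for 56.9% of all genes. Across the 32 genes, which share arrays and are not independent, the set 1 and set 2 differences correlated at r = 0.251 (Spearman's rho 0.257), against r = 0.367 over all genes.

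**Figure D3:**
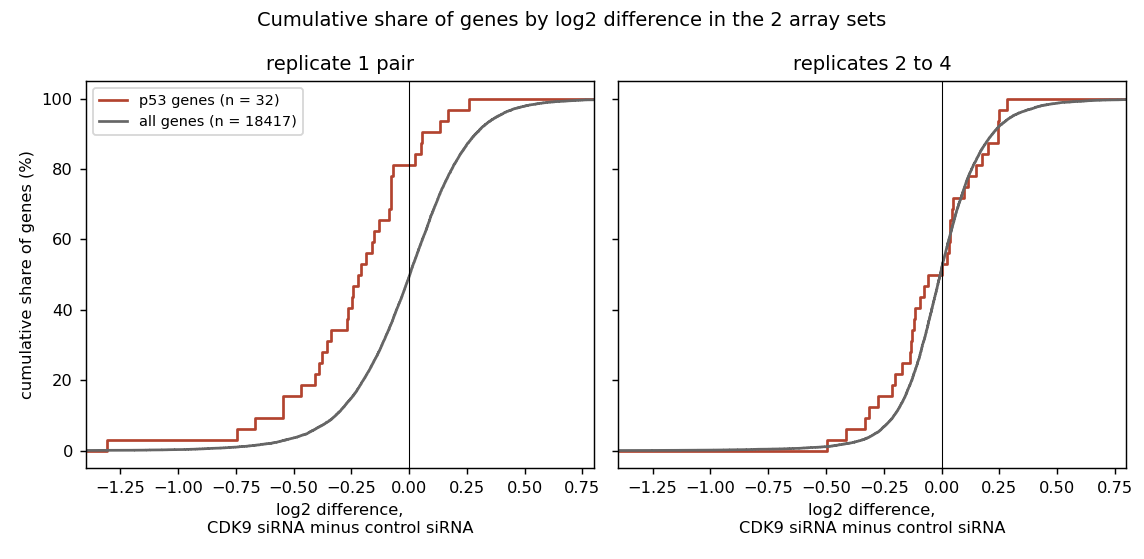
Cumulative share of genes (vertical axis, %) by log2 difference between CDK9 siRNA and control siRNA (horizontal axis) for the 32 p53 genes (red) and all 18417 genes (grey), in the replicate 1 pair (left) and in replicates 2 to 4 (right). The red line lies left of the grey one in the replicate 1 pair, where 81.2% of the p53 genes are below 0, and crosses it near 0 in replicates 2 to 4, where 16 of the 32 are.

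Within set 2, the 3 CDK9 siRNA arrays lay wholly below the 3 controls for 12 p53 genes and wholly above for 7, against 19.5% and 18.7% of all genes. Of the 12, 9 were also lower in the set 1 pair, and of the 7, 1 was also higher there (GADD45A). Over all genes, 70.8% of those lying wholly below in set 2 were also lower in set 1, and 61.4% of those lying wholly above were also higher. In set 2 alone, 6 p53 genes were lower and 3 higher by limma, against 8.57% and 9.52% of all genes. The 6 were the 5 falls above and AEN, and the 3 were PLK2, DDB2 and RRM2B. These 3 were lower in the set 1 pair, and TP53I3, GDF15, SUSD6, PLK3 and TIGAR were lower in both sets. The latter 5 were picked by the test over both sets. The group difference itself differed between sets for 2 p53 genes, TP53INP1 and CCNG1 (-0.47, adjusted p = 0.0482), and for 2.14% of all genes. CCNG1 lost this call without any 1 of the arrays of set 2 (adjusted p = 0.0566 to 0.116), and TP53INP1 kept it without each of them (adjusted p up to 0.0469).

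**Figure D4:**
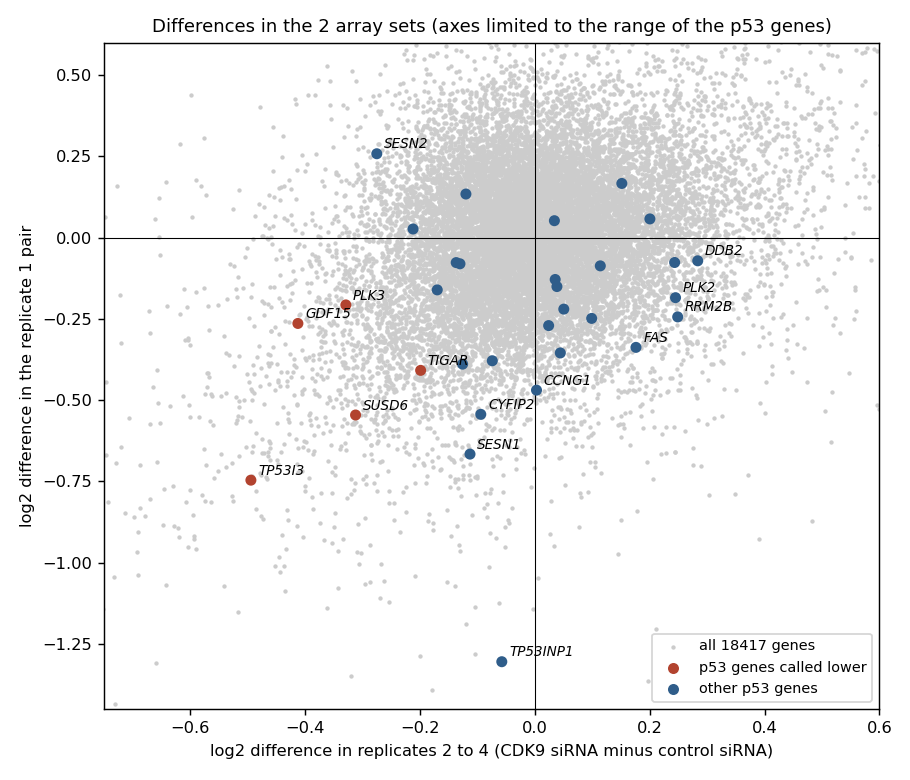
Log2 difference (CDK9 siRNA minus control siRNA) in the replicate 1 pair (vertical axis) against that in replicates 2 to 4 (horizontal axis), for all genes (grey), the 5 p53 genes that fell (red) and the other 27 (blue), with axes limited to the range of the p53 genes. The red genes lie lower left, DDB2, PLK2 and RRM2B lie right of 0 and below it on the vertical axis, and TP53INP1 lies at -1.31 in the replicate 1 pair and -0.06 in replicates 2 to 4.

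Genes that act on p53 were read from another list. Of 34 measured, 3 rose and 4 fell (8.82% and 11.8%, against 6.73% and 7.47% of all genes), with a median difference of -0.03. RCHY1, a ubiquitin ligase for p53 (0.30, adjusted p = 0.00571), HIPK2, a kinase that phosphorylates p53 (0.33, adjusted p = 0.0268), and SETD7, a lysine methyltransferase (0.31, adjusted p = 0.0119), rose. The p53 cofactor JMY fell most (-0.47, adjusted p = 0.00516), reading 5.69, 7.69, 7.60 and 7.91 in the CDK9 siRNA arrays, against 6.31, 8.15, 8.07 and 8.22 in the control arrays. CREBBP, an acetyltransferase and coactivator (-0.29, adjusted p = 0.00707), PPP1R13B, which steers p53 towards apoptosis genes (-0.24, adjusted p = 0.0137), and the corepressor TRIM28 (-0.17, adjusted p = 0.0485) also fell. All 7 had separate groups in set 2 and the same sign in set 1, but they were picked by the test on these same arrays. Of all genes, 19.5% lay wholly below the controls in set 2, 18.7% wholly above, and 56.9% had the same sign in both sets. With the replicate number as a block, HIPK2 and TRIM28 lost their calls (adjusted p = 0.0655 and 0.106). TRIM28 lost its call whichever of the 8 arrays was left out. Leaving out replicate 1 of either group is the same as the fit of set 2 alone, in which TRIM28 did not pass (adjusted p = 0.071). HIPK2 lost its call without 4 of the 8 arrays. PPM1D, a phosphatase that reverses p53 activation, differed by 0.03 (adjusted p = 0.803).

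Of 53 other p53 target genes measured, 5 rose and 11 fell (9.43% and 20.8%, against 6.73% and 7.47% of all genes), with a median of -0.07. TRIM22, an antiviral ubiquitin ligase, fell most (-0.98), with -1.70 in set 1 and -0.74 in set 2. SAT1, which acetylates polyamines, read 6.60, 8.02, 8.10 and 8.13 in the CDK9 siRNA arrays, against 6.92, 8.67, 8.82 and 8.93 in the control arrays, and its difference was -0.62 ± 0.09 (SE, n = 4 in each group, adjusted p = 0.00194). KITLG, the ligand of the receptor KIT (-0.60), the receptor LRP1 (-0.48), the exchange factor ARHGEF3 (-0.46), PSTPIP2 (-0.44), the phosphatase DUSP14 (-0.33) and the matrix protein THBS1 (-0.31) followed. PADI4 (-0.25, dim), CSF1 (-0.23) and TRAF4 (-0.20) fell least. The genes that rose were ANKRA2 (0.32), the cotransporter SLC12A4 (0.31), the checkpoint protein SFN (0.30), PMAIP1, the apoptosis inducer NOXA (0.25), and NADSYN1 (0.22). With the replicate number as a block, ANKRA2, NADSYN1 and TRAF4 lost their calls (adjusted p = 0.0657, 0.0861 and 0.0827), which left 3 genes higher and 10 lower. PADI4, TRAF4 and NADSYN1 each lost their call without 7 of the 8 arrays, CDK9 siRNA replicate 2 being the exception. Leaving out replicate 1 of either group is the same as the fit of set 2 alone, in which they did not pass (adjusted p = 0.0612, 0.0628 and 0.0631). ANKRA2 lost its call without 5 of the 8 and THBS1 without 3. PMAIP1 read 8.87, 10.22, 10.30 and 10.18 in the CDK9 siRNA arrays, against 8.51, 9.99, 10.06 and 10.02 in the control arrays, and it was higher in all 4 pairs.

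Genes that p53 represses through p21 and the DREAM complex, mainly of mitosis, were read as a further list. Of 27 measured, 1 rose and 0 fell (3.7% and 0.0%, against 6.73% and 7.47% of all genes). At an unadjusted p under 0.05 in limma, 5 were higher and 2 lower (18.5% and 7.41%, against 13.3% and 14.7% of all genes). The gene that rose was LMNB1, which encodes a nuclear lamin (0.21, adjusted p = 0.021), and its adjusted p was 0.0663 when arrays were blocked by number. The list's median was -0.22 in set 1 and 0.09 in set 2. In set 2, 19 of the 27 lay wholly above the controls, against 18.7% of all genes, and 5 of these 19 (26.3%) were also higher in set 1, against 61.4% over all genes. In set 2 alone 6 were higher and 0 lower by limma, against 9.52% and 8.57% of all genes. LMNB1 also lost its call without any 1 of 5 of the 6 arrays of set 2, CDK9 siRNA replicate 4 being the exception.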

How the data were processed

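The authors deposited log2 expression values of 33297 probe sets in 8 arrays. The submitters' processing notes name RMA, build hg19, limma and Affymetrix Expression Console 1.1, with role and order not given in the sources used here. A single symbol was annotated for 19460 probe sets, more than 1 for 1754 and no symbol for 12083, and the probe set with the highest mean stood for each of 18417 genes. The number of arrays limits the precision.

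limma 3.58.1 (R 4.3.3), by lmFit and eBayes, gave two-sided p values, adjusted by the Benjamini-Hochberg method. The model held the siRNA group and the array set, and an interaction model compared the sets. The fit was tested on simulated data of 18417 genes, with 50 genes changed at each of 1.2, 1.5, 2 and 4-fold. It recovered 26%, 98%, 100% and 100% of these, and 13 of its 175 calls were unchanged genes. Most changes of 1.2-fold were thus missed, so a gene that did not pass may still have changed by that much. Plots were drawn with matplotlib 3.10.9, and tables made with numpy 2.4.6 and pandas 2.3.3 under Python 3.11.15. Promoters are those of RefSeq (GRCh38.p14).

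Replicate numbers recur in both groups. Deviations from group means correlated at 0.822, 0.537, 0.494 and 0.607 within same-numbered pairs 1 to 4, all above the limit of 0.1, so a fit blocked by replicate number is given where it changes a call. These correlations carry the lower scale of replicate 1. Arrays of set 2 with unlike numbers correlated about as highly, at 0.405 to 0.561, so passing the limit does not show that like numbers are paired. With deviations taken within set 2, the correlations were 0.108, -0.01 and 0.170 for pairs 2 to 4, and -0.175 to 0.0762 for unlike numbers.

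The alternatives were no block, the replicate block, centring, renewed quantile normalization, set 2 only, dim genes left out, averaged probe sets, trend and robust variances, and each array left out in turn. The members and lists were chosen with earlier results of these data known. Named genes are all members, CDK9, PPM1D and each gene of the other lists past the threshold. A further gene of the naming rule is not reported here.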

Additional observations from a re-analysis of the deposited data

Results flagged for a closer look

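In each group of 4 arrays, a value was singled out when its gap to the nearest of the others, divided by the whole range, was above Dixon's 95% critical value, after the mean of its array set had been subtracted. Of 116 groups of values tested, 10 stood out. For independent values chance singles out about 1 in 20. That rate does not hold here, because the replicate 1 values of a gene mirror each other around their set mean. TP53INP1 stood out in both groups in replicate 1, at -0.65 in CDK9 siRNA (others -0.07 to 0.02) and at 0.65 in control siRNA (others 0.01 to 0.04). Its log2 difference in set 1 minus that in set 2 was -1.25 (adjusted p = 0.00829). CCNG1 stood out in CDK9 siRNA replicate 1, at -0.23 (others -0.01 to 0.03), and its difference between the sets was -0.47 (adjusted p = 0.0482). TP53I3 and DDB2 stood out in the same array, TP53I3 at -0.37 (others -0.26 to -0.24) and DDB2 at -0.036 (others 0.14 to 0.14).

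Among the genes of the other lists, TRIM22 stood out in CDK9 siRNA replicate 1 at -0.85 (others -0.38 to -0.35), and its difference between the sets was -0.96 (adjusted p = 0.0142). That of KITLG was -0.65 (adjusted p = 0.0463). ARHGEF3 stood out in CDK9 siRNA replicate 2 at -0.12, TRAF4 in control replicate 1 at 0.15, SLC12A4 in control replicate 1 at -0.076 and PPP1R13B in control replicate 4 at 0.083. The mean of set 1 comes from 1 array of each group, so a gene whose difference is larger or smaller in set 1 moves both arrays of that set apart by equal amounts.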

How the results depend on the processing

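TP53I3, GDF15, SUSD6 and PLK3 kept their direction and call under every alternative run except the fit without the array-set block, with adjusted p values up to 0.0353 elsewhere, and TIGAR did so except in that fit, with the replicate block (adjusted p = 0.0517) and without control replicate 3 (0.0541). Without the array-set block 0 genes rose and 0 fell over all genes in limma (28 and 23 at an unadjusted p under 0.05), so 0 p53 genes, upstream regulators, other targets and DREAM genes passed in either direction (0 of each at an unadjusted p under 0.05), and CDK9 (log2 difference -1.82) had an adjusted p of 1. The difference between array sets enters the residual of that fit. With the replicate block, 813 genes rose and 875 fell, with 3 other targets higher and 0 DREAM genes higher. It lost the calls of HIPK2, TRIM28, ANKRA2, NADSYN1, TRAF4 and LMNB1 besides TIGAR. Among the cell type markers it lost those of VIM, EPCAM and CD68, and it changed no other call among the genes named. In array set 2 only, 3 p53 genes and 6 DREAM genes were higher. With the intensity trend and robust variances, 2 p53 genes were higher, 9 upstream regulators were lower, and 2 DREAM genes were higher and 2 lower. Quantile normalization gave 5 upstream regulators higher, and 2 DREAM genes higher and 1 lower, and so did leaving out the lowest 30% of genes. Averaging probe sets gave 2 DREAM genes higher. The number of p53 genes whose difference differed between sets was 2, but 4 with centred arrays, 1 after quantile normalization, 8 without the lowest 30% and 11 with trend and robust variances, and over all genes the last 2 gave 1309 and 1878. The cause of these differences was not tested. Differences close to 0 changed sign. MDM4 was 0.0128 with centred arrays, 0.00826 after quantile normalization and 0.0352 in set 2 only, and CDKN1A was 0.00962, 0.00832 and 0.0383. ZMAT3 was 0.00123 with centred arrays, and in set 2 only ZMAT3, CCNG1, POLH and EDA2R were 0.0502, 0.00269, 0.0238 and 0.0442.

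Leaving out 1 array at a time gave 714 to 1753 genes higher and 806 to 1578 lower, and 0 to 3 p53 genes higher and 4 to 6 lower. It gave 2 to 4 upstream regulators lower, 2 to 6 other targets higher and 7 to 12 lower, and 0 to 6 DREAM genes higher. Of p53 genes, 1 differed between sets whichever set 2 array was left out, and of all genes 17 to 457. The lowest counts of genes higher and lower came without control replicate 3, and counts over all genes also moved by over 1.5 times without CDK9 siRNA replicate 3 (771 and 883) or control replicate 4 (814 and 871), and for genes higher without control replicate 2 (796). Upstream regulators and other targets lower were fewest (2 and 7) without control replicate 3. Other targets higher numbered 2 without CDK9 siRNA replicate 3 or control replicate 2, and 3 without CDK9 siRNA replicate 4 or control replicates 3 or 4. LMNB1 lost its call without CDK9 siRNA replicates 2 or 3 or control replicates 2, 3 or 4. TRIM28 lost its call without any 1 array (adjusted p up to 0.123), PADI4, TRAF4 and NADSYN1 without any but CDK9 siRNA replicate 2 (up to 0.118), HIPK2 without replicate 2 of either group, CDK9 siRNA replicate 4 or control replicate 3, and ANKRA2 without replicates 3 or 4 of either group or control replicate 2. THBS1 lost it without CDK9 siRNA replicate 3 or control replicates 3 or 4, PMAIP1 without CDK9 siRNA replicate 3 or control replicate 2, and PPP1R13B and CSF1 without control replicate 3. Without CDK9 siRNA replicate 3 the sets differed for 27 of all genes, without CDK9 siRNA replicate 4 for 161, and without control replicates 2, 3 and 4 for 23, 17 and 50. Log2 differences ranged over -0.148 to 0.00269 for CCNG1, -0.0519 to 0.0383 for CDKN1A, -0.0971 to 0.0442 for EDA2R, -0.00525 to 0.176 for FAS, -0.0605 to 0.0352 for MDM4, -0.0764 to 0.0238 for POLH, -0.00361 to 0.0959 for PPM1D, -0.0135 to 0.0988 for XPC and -0.0511 to 0.0502 for ZMAT3. Without replicate 1 of either group the other array of set 1 carries no group difference, so those fits rest on set 2. Arrays without detection calls limit what can be said of the 2 dim genes.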
